A study of Mus musculus with 2 samples.

Results

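Snai1, Snai2, Twist1, Twist2, Zeb1 and Zeb2 encode the transcription factors best known for driving epithelial and endothelial cells towards a mesenchymal state. They were found by symbol in the gene list of both count matrices, which held 6 of 6 among 32285 genes. They were followed through 14 classes of aortic cells and through the subclusters of the endothelial cells. The series asks what CD45, a leukocyte tyrosine phosphatase encoded by Ptprc, does in endothelial cells (EC) during endothelial-to-mesenchymal transition in atherosclerosis. Both groups were ApoE-/- mice on a C57BL/6 background fed a Western diet. The group named WT here carried no further deletion, and EC-iCD45KO mice carried in addition a tamoxifen-inducible deletion of CD45 in EC. The Cre driver, the ages and any pooling of animals are not given in the sources used here. Each group had 1 library of single aortic cells captured on CD31 beads, so no difference between the groups has a replicate check, and the deletion cannot be told apart from anything else that differed between the 2 preparations.

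Snail proteins (Snai1 and Snai2) are zinc-finger repressors that bind short E-box sequences in promoters such as that of E-cadherin. Twist proteins (Twist1 and Twist2) are basic helix-loop-helix factors that pair with E proteins and are held back by Id proteins. Zeb1 and Zeb2 carry separated zinc-finger clusters that reach paired E-boxes, and both recruit corepressors of the CtBP family. Outside this programme Zeb1 is known in lymphocytes, Zeb2 in macrophages and in Schwann cells, and Twist factors in fibroblasts, mural cells and skeletal tissue.

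In GRCm38, Snai1 (ENSMUSG00000042821) lies on the plus strand of chromosome 2 at 167538195 to 167542814. Snai2 (ENSMUSG00000022676) lies on chromosome 16 at 14705852 to 14709385, plus strand. Twist1 (ENSMUSG00000035799) spans 33957671 to 33959829 of chromosome 12, plus strand, and Twist2 (ENSMUSG00000007805) spans 91801461 to 91848028 of chromosome 1, plus strand. Zeb2 (ENSMUSG00000026872) is on chromosome 2 at 44983632 to 45117395, minus strand. Twist2 overlaps Gm29101 on its own strand and Gm29100 on the other, and Zeb1 and Zeb2 overlap Gm10125 and Zeb2os on the other strand. Reads in those stretches may have been assigned either way.

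The sequences upstream of Snai1, Twist1 and Twist2 are shown because Snail proteins act on E-boxes and because both Twist genes had similar profiles over the cell classes. Each run is the 250 bases before the RefSeq start in GRCm38.p6, plus strand, 5′ to 3′, at chr2:167537945-167538194, chr12:33957421-33957670 and chr1:91801211-91801460, and capitals mark an E-box of the Snail type, CACCTG.
Snai1: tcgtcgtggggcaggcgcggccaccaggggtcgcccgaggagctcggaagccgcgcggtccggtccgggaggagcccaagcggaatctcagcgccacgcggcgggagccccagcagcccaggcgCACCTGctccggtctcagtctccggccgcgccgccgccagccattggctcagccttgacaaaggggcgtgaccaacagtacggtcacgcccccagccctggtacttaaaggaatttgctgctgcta
Twist1: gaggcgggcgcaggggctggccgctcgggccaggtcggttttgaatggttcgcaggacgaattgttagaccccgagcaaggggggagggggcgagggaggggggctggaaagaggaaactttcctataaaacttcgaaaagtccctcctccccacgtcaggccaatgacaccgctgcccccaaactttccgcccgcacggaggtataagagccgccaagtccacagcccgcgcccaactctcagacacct
Twist2: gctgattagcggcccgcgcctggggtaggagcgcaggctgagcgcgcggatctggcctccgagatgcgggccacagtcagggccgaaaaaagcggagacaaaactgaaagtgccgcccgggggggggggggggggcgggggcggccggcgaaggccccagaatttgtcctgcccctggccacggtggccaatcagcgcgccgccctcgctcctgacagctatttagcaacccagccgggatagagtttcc
The search covered 250 bases before to 50 after each start, on both strands, for any E-box (CANNTG) and for its Snail type (CACCTG or CAGGTG, a subset of the first). The Snai1 window held 1 E-box, CACCTG, beginning 126 bases before the start. The windows of Twist1, Twist2 and the 4 annotated starts of Zeb2 held none. Among 32851 mouse windows of that length, 72.3% held a CANNTG and 20.2% a Snail-type E-box. The 3 runs shown had a GC content of 70.0% (Snai1), 62.4% (Twist1) and 68.8% (Twist2). Snai2 and Zeb1 are named only.

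The WT library held 39849 barcodes and 92058043 UMIs (tags that count each captured RNA molecule once), with a median of 1548 per barcode, and the EC-iCD45KO library 30278 barcodes, 88967918 UMIs and a median of 1405. The 2 libraries shared 340 barcodes, and none of these had identical counts. Levels below are CPM, the UMIs of a gene divided by all UMIs of the same cells and multiplied by 1000000, with 95% Poisson intervals that cover counting error only. All 13 EC markers, such as Cdh5 and Pecam1, stood at 1 CPM or more in EC-like cells, and in the chondrocyte-like class of EC-iCD45KO the markers Cnmd and Matn3 were at 0. The CD31 selection left many other cells: the named classes included 3481 WT and 4180 EC-iCD45KO EC-like cells, 2463 and 3507 smooth muscle (SMC)-like cells, 2231 and 2432 fibroblast-like cells, and 3477 and 9636 macrophage-like cells. EC-like cells also held UMIs of the markers of other classes. The 11 macrophage markers summed to 3010 CPM in the WT EC-like cells and 4194 CPM in those of EC-iCD45KO, with 11 of 11 at 1 CPM or more in both libraries. Ptprc itself stood at 288 CPM in WT and 116 CPM in EC-iCD45KO EC-like cells and was also lower in most other classes, such as macrophage-like cells (498 and 284 CPM), but higher in B-like (752 and 1267 CPM) and neutrophil-like cells (930.5 and 1727 CPM). Which part of Ptprc was deleted is not given in the sources used here.

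Over the cell classes the members fell into separate patterns. Snai1 was highest in chondrocyte-like and fibroblast-like cells, Snai2 in chondrocyte-like cells, Twist1 in chondrocyte-like, fibroblast-like and mural cells, Twist2 in fibroblast-like and mural cells, Zeb1 in T/NK-like and EC-like cells, and Zeb2 in macrophage-like, Schwann-like, neutrophil-like and pericyte-like cells. Macrophage-like cells, the class with the highest Zeb2, had the lowest Zeb1 of the 14 classes in both libraries. The plot of levels by class shows these patterns side by side.

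**Figure D1:**
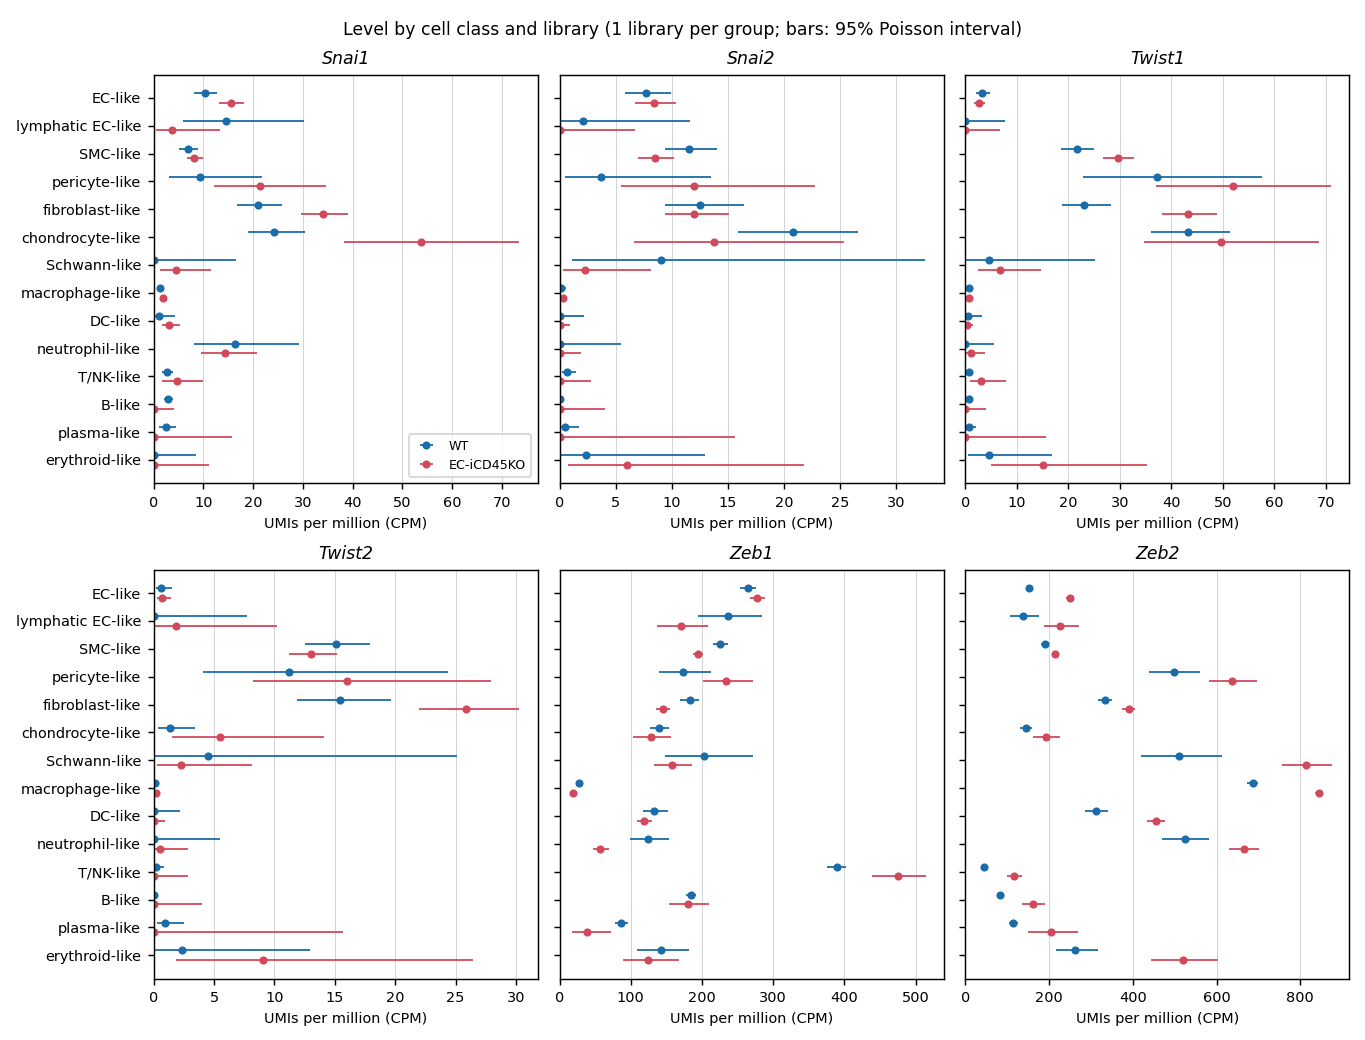
Level of each gene in CPM (linear axes, a separate scale per panel) in 14 cell classes, with WT in blue and EC-iCD45KO in red; points are 1 library each and bars are 95% Poisson intervals. Zeb1 was highest in T/NK-like cells (389 and 476 CPM) and lowest in macrophage-like cells (26.8 and 18.5 CPM), where Zeb2 stood at 686 and 844 CPM.

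Snai1 reached its highest class level in chondrocyte-like cells, where WT had 24.1 CPM (18.9 to 30.4) and EC-iCD45KO 53.8 CPM (38.2 to 73.5). Fibroblast-like cells came next, with 20.9 CPM (16.8 to 25.8) for WT and 34.0 CPM (29.5 to 39.01) for EC-iCD45KO. The intervals of these 2 classes overlapped in both libraries, and the classes were not compared directly. Neutrophil-like cells held 16.3 and 14.4 CPM from 11 and 28 UMIs. EC-like cells stood at 10.25 CPM for WT (8.13 to 12.8, 80 UMIs) and 15.5 CPM for EC-iCD45KO (13.2 to 18.1, 157 UMIs), above SMC-like cells at 6.83 and 8.20 CPM and above macrophage-like cells at 1.34 and 1.82 CPM. The SMC-like and EC-like intervals overlapped in WT and not in EC-iCD45KO. Snai1 was thus a low transcript in EC-like cells whose level lay above that of the macrophage-like cells in both libraries.

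Snai2, which has roles in neural crest and connective tissue, had at most 6 UMIs per library, or 0.692 CPM, in T/NK-like, DC-like, B-like, neutrophil-like and plasma-like cells. Chondrocyte-like cells had 20.8 CPM (15.9 to 26.6) in WT and 13.8 CPM in EC-iCD45KO. Fibroblast-like cells had 12.5 and 11.95 CPM, and SMC-like cells 11.5 CPM (9.36 to 14.05) and 8.50 CPM. In WT the chondrocyte-like interval overlapped that of fibroblast-like cells (52 UMIs) and not that of SMC-like cells. Pericyte-like cells had 3.73 and 11.99 CPM, from 2 and 9 UMIs. EC-like cells had 7.69 CPM in WT, with an interval of 5.87 to 9.90, and 8.39 CPM in EC-iCD45KO, with one of 6.70 to 10.4. Within EC-iCD45KO the intervals of the chondrocyte-like, pericyte-like, fibroblast-like, SMC-like and EC-like classes overlapped, and these classes were not compared directly. Macrophage-like cells had 0.149 and 0.271 CPM, from 2 and 10 UMIs, both below EC-like cells without overlap of the intervals. Neutrophil-like and DC-like cells had no Snai2 UMI in either library, and the plasma-like, T/NK-like and B-like classes had none in EC-iCD45KO. A count of 0 allows up to 0.768 CPM in EC-iCD45KO DC-like cells, 4.44 CPM in WT neutrophil-like cells and 12.7 CPM in the small plasma-like class of EC-iCD45KO, so not all of these classes can be set below the stromal ones.

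Twist1 and Twist2 were stromal and mural. Twist1 stood at 43.2 CPM in WT and 49.6 CPM in EC-iCD45KO chondrocyte-like cells, at 37.3 and 51.9 CPM in pericyte-like cells, at 23.1 and 43.3 CPM in fibroblast-like cells and at 21.65 and 29.6 CPM in SMC-like cells. EC-like cells held 3.20 CPM (25 UMIs) and 2.565 CPM (26 UMIs). Twist2 was highest in fibroblast-like cells, at 15.4 and 25.9 CPM, and in SMC-like and pericyte-like cells, between 11.2 and 16.0 CPM. It differed most from Twist1 in the chondrocyte-like cells, which held 129 and 36 Twist1 UMIs and 4 Twist2 UMIs in each library. EC-like cells held 5 and 7 Twist2 UMIs, or 0.641 and 0.6905 CPM, a level at which no pattern can be described.

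Zeb1 (ENSMUSG00000024238, chromosome 18, 5591860 to 5775467, plus strand) was detected in each of the 14 classes. After T/NK-like cells, EC-like cells came second with 264.5 CPM (253 to 276) for WT and 278 CPM (267 to 288) for EC-iCD45KO. In WT the lymphatic EC-like class overlapped with them at 236 CPM (195 to 284), as did the Schwann-like class at 203 CPM (45 UMIs). In EC-iCD45KO the pericyte-like class did at 234 CPM (201 to 272). SMC-like cells held 226 and 194 CPM, B-like cells 184 and 181 CPM, and fibroblast-like cells 182.5 and 145.5 CPM. EC-like cells without any macrophage marker UMI held 267 and 292 CPM of Zeb1. T/NK markers summed to 413 CPM in WT and 87.8 CPM in EC-iCD45KO EC-like cells, against 6291 and 6322 CPM in T/NK-like cells. B markers summed to 1975 CPM in WT EC-like cells, against 10070 CPM in WT B-like cells. They were lower in EC-iCD45KO in each EC-like subcluster described below, such as 1542 and 780 CPM in the capillary-like one. The part of these lymphocyte markers in the Zeb1 levels of EC-like cells was not tested.

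Zeb2 ranged from 44.7 CPM in WT T/NK-like cells to 844 CPM in EC-iCD45KO macrophage-like cells. Schwann-like cells, whose maturation depends on Zeb2, had 509 CPM in WT and 814 CPM in EC-iCD45KO. Neutrophil-like cells held 524 and 665 CPM, pericyte-like cells 498 and 638 CPM and fibroblast-like cells 333 and 390 CPM. EC-like cells stood below these classes, with 152 CPM (144 to 161) for WT and 249 CPM (239 to 259) for EC-iCD45KO. Chondrocyte-like, lymphatic EC-like, plasma-like, B-like and T/NK-like cells had lower values than EC-like cells in both libraries. The intervals of Schwann-like and macrophage-like cells overlapped in EC-iCD45KO and not in WT. EC-like cells thus held less Zeb2 than macrophage-like cells, whose markers they also contained.

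Zeb2 was set beside the macrophage marker UMIs of the same cells. Macrophage-like cells held 3.40 Zeb2 UMIs per 100 macrophage marker UMIs in WT and 4.45 in EC-iCD45KO, and the macrophage-like clusters ranged from 1.69 in the WT cluster led by Gpnmb and Trem2 to 15.3 in the EC-iCD45KO cluster led by Chil3 and F10. EC-like cells held 5.06 and 5.93 per 100, inside that range. Pericyte-like cells held 24.6 and 48.8, the fibroblast-like cluster led by Sfrp4 and Ccl19 held 36.9 and 20.9, the SMC-like cluster of deep cells held 30.1 and 15.0, and B-like cells held 21.9 and 32.9. The whole fibroblast-like class held 10.6 and 9.65, the whole SMC-like class 12.3 and 7.95, and the shallow cluster of each held 6.86 and 6.44 (fibroblast-like) and 5.945 and 6.045 (SMC-like). These values lay inside the range of the macrophage-like clusters over both libraries, as those of EC-like cells did. Within WT alone those clusters reached 12.05, and the whole SMC-like class lay just above that. In the 731 WT and 484 EC-iCD45KO EC-like cells without a macrophage marker UMI, Zeb2 stood at 51.2 CPM (82 UMIs) and 47.9 CPM (55 UMIs).

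**Figure D2:**
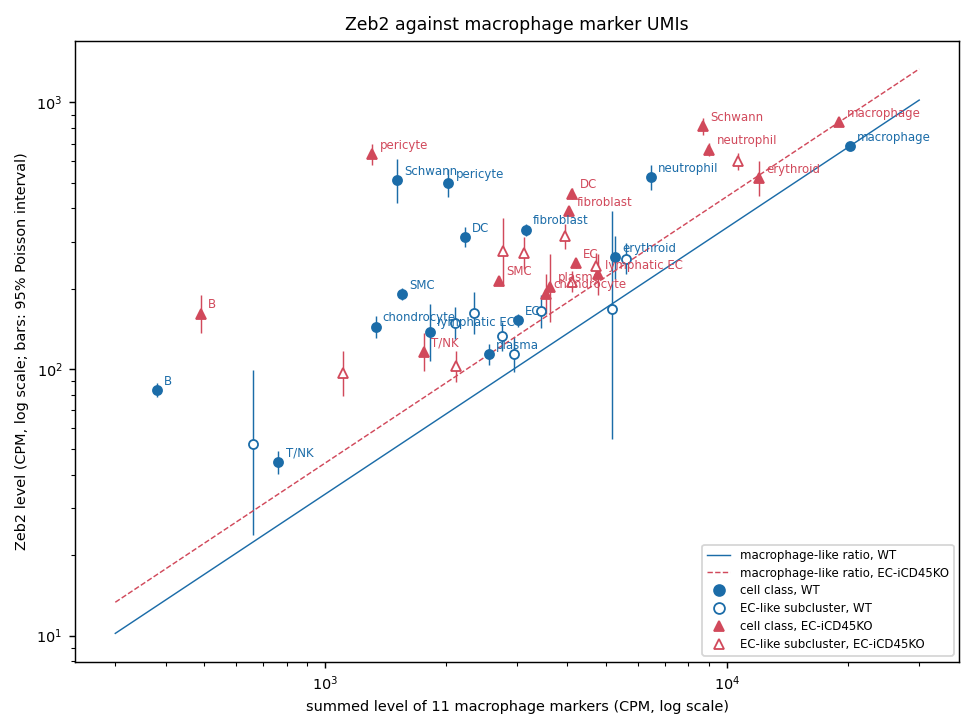
Zeb2 level against the summed level of 11 macrophage markers (both CPM, log scales) in the cell classes (filled) and the EC-like subclusters (open), WT as blue circles and EC-iCD45KO as red triangles, with 95% Poisson intervals; lines give the Zeb2 to marker ratio of macrophage-like cells in each library. The EC-like class lies close to the lines at 5.06 and 5.93 Zeb2 UMIs per 100 marker UMIs, and pericyte-like cells lie far above them at 24.6 and 48.8.

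Shares of cells with a UMI, taken after thinning each cell to 1000 UMIs with shallower cells left out, were computed next. Of EC-like cells, 2494 in WT and 2706 in EC-iCD45KO remained, and 987 and 1474 were left out. Zeb1 was seen in 22.1% (20.5 to 23.8) of the WT and 19.1% (17.6 to 20.6) of the EC-iCD45KO EC-like cells, against 2.62% and 2.09% of macrophage-like cells, and without thinning in 34.0% and 29.6%. The unthinned median depths were 1434 and 1292 UMIs in EC-like and 3297 and 2031 UMIs in macrophage-like cells. Zeb2 was seen in 13.1% and 23.1% of EC-like cells and in 44.9% and 52.1% of macrophage-like cells. Before thinning, the Zeb2 shares of EC-like cells were 21.8% and 33.4%. Snai1 was seen in 0.842% and 1.11% of EC-like cells and in 0.0969% and 0.299% of macrophage-like cells, and Snai2 in 0.842% and 0.628% against 0.0646% and 0.0448%. Twist1 was seen in 3 of 2494 and 7 of 2706 EC-like cells, or 0.120% and 0.259%, and in 0% and 0.164% of macrophage-like cells, with overlapping intervals in both libraries. At this depth the 4 Snail and Twist genes were too sparse to follow cell by cell in EC-like cells.

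Within the EC-like cells 8 subclusters were separated on genes at least 1.5-fold higher in EC-like cells than in all cells, the members left out. The venous-like subcluster was led by Ackr1, Csf3 and Selp, with Ccl21a of lymphatic cells and Ighg1 of plasma cells also among its leading genes, the capillary-like one by Timp4, Car4 and Gpihbp1, and the arterial-like one by Sfrp1 and Frmd5. The 5 others stayed unnamed and are called by leading genes. The largest subcluster, with 754 WT and 1231 EC-iCD45KO cells, is among them and lay nearest to the list of foamy (lipid-laden) macrophages. It was kept in the EC-like values unless stated. Zeb1 was present throughout and highest in a small subcluster led by Nts, Prnd, Pgf and Apln, with 17 WT and 129 EC-iCD45KO cells. Apln and Pgf encode angiogenic ligands, and Ube2c, a cell division gene, was also among its leading genes. There Zeb1 stood at 550 CPM (95 UMIs) and 459 CPM (513 UMIs), against 203 to 303 CPM in the 6 other subclusters with more than 100 WT cells in WT and 115 to 322 CPM in the same subclusters in EC-iCD45KO. Snai1 was highest in the same subcluster, at 63.7 CPM (11 UMIs) in WT and 43.8 CPM (49 UMIs) in EC-iCD45KO, against 5.79 to 11.4 CPM and 6.71 to 15.2 CPM in those 6 others. This held in both libraries against those 6, although 11 UMIs carry the WT value. The subcluster led by Igfbp5, Esm1 and Npr3, with 10 WT and 83 EC-iCD45KO cells, held Zeb1 at 134 CPM (4 UMIs) and 352 CPM (61 UMIs). Its Snai1 was 0 UMIs in WT and 2 UMIs (11.5 CPM) in EC-iCD45KO. With so few UMIs its order below the Nts subcluster was not tested. The cells of the Nts subcluster had a median of 3671.5 UMIs, the highest of the 8 subclusters.

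**Figure D3:**
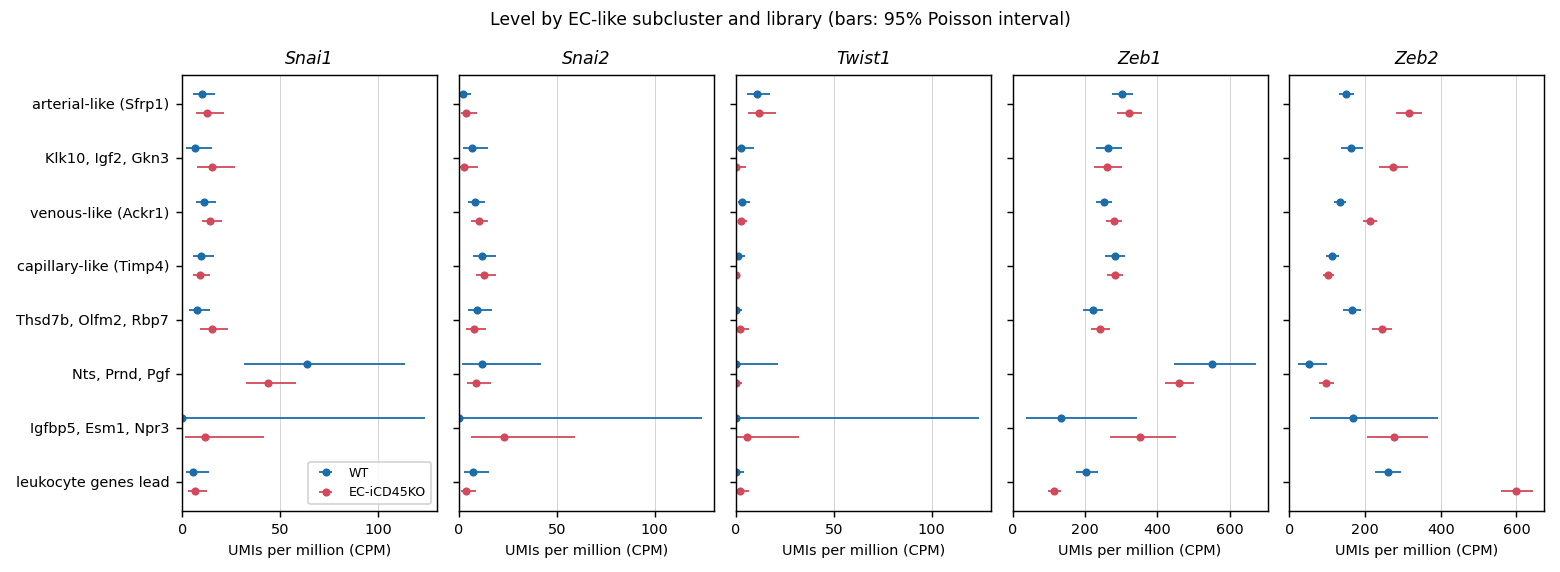
Level in CPM (linear axes) of 5 of the genes in the 8 EC-like subclusters, WT in blue and EC-iCD45KO in red, with 95% Poisson intervals. The subcluster led by Nts, Prnd and Pgf had the highest Snai1 (63.7 and 43.8 CPM) and Zeb1 (550 and 459 CPM) in both libraries; its Zeb2 was 52.1 and 96.6 CPM.

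Snai2 and Twist1 differed over the 3 named subclusters. Capillary-like cells had 18 and 27 Snai2 UMIs, and the WT level was 11.8 CPM. Venous-like cells had 15 and 23, and the WT level was 8.14 CPM. Arterial-like cells had 3 and 4, and the levels were 2.12 and 3.67 CPM. Twist1 stood at 10.6 CPM (15 UMIs) and 11.9 CPM (13 UMIs) in arterial-like cells against 1.31 CPM and 0 in capillary-like cells, so that 15 of 25 WT and 13 of 26 EC-iCD45KO Twist1 UMIs of the EC-like class came from the arterial-like subcluster. A second subcluster, led by Klk10, Igf2 and Gkn3, was also nearest to the arterial markers but had none of them among its 10 leading genes and stayed unnamed. It did not share the high Twist1, with 2 UMIs (2.58 CPM) in WT and none in EC-iCD45KO, and its Snai2 was 6.45 and 2.74 CPM from 5 and 2 UMIs. The list of modulated SMC was second nearest to the arterial-like subcluster, and Col5a2 and Frzb were among its leading genes. Its fibroblast markers summed to 1770 CPM in WT and 2189 CPM in EC-iCD45KO, its SMC markers to 879.5 and 1476 CPM and its chondrocyte markers to 1946 and 1596 CPM. In capillary-like cells the same 3 sums were 135 and 143 CPM, 184 and 344 CPM, and 34.2 and 12.5 CPM. The Klk10 subcluster held 744.5 and 944 CPM, 1108 and 773 CPM, and 2271 and 2668 CPM. The part of these stromal markers in the Twist1 level was not tested. The counts are small, and the order is a description. Zeb2 was highest, at 259 CPM in WT and 600 CPM in EC-iCD45KO, in the shallow subcluster whose leading genes include leukocyte genes such as Ctss and Trem2, with macrophage markers at 5593 and 10600 CPM and a median of 895 UMIs.

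Between the libraries, a gene was called higher or lower when the EC-iCD45KO level was at least 1.5-fold apart from WT and the 95% counting interval of the log2 ratio excluded 0. With 1 library per group this is a description of 2 libraries and no test. In EC-like cells 5 of the 6 members had at least 20 UMIs over both libraries, and 2 of these, Zeb2 and Snai1, were called higher and none lower. Among all 14075 genes with 20 UMIs there, 5.56% were called higher and 8.52% lower, with a median log2 ratio of -0.02. The median of the 5 members was 0.125. The calls of Zeb2 and Snai1 were each lost under some of the alternative settings given below.

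**Figure D4:**
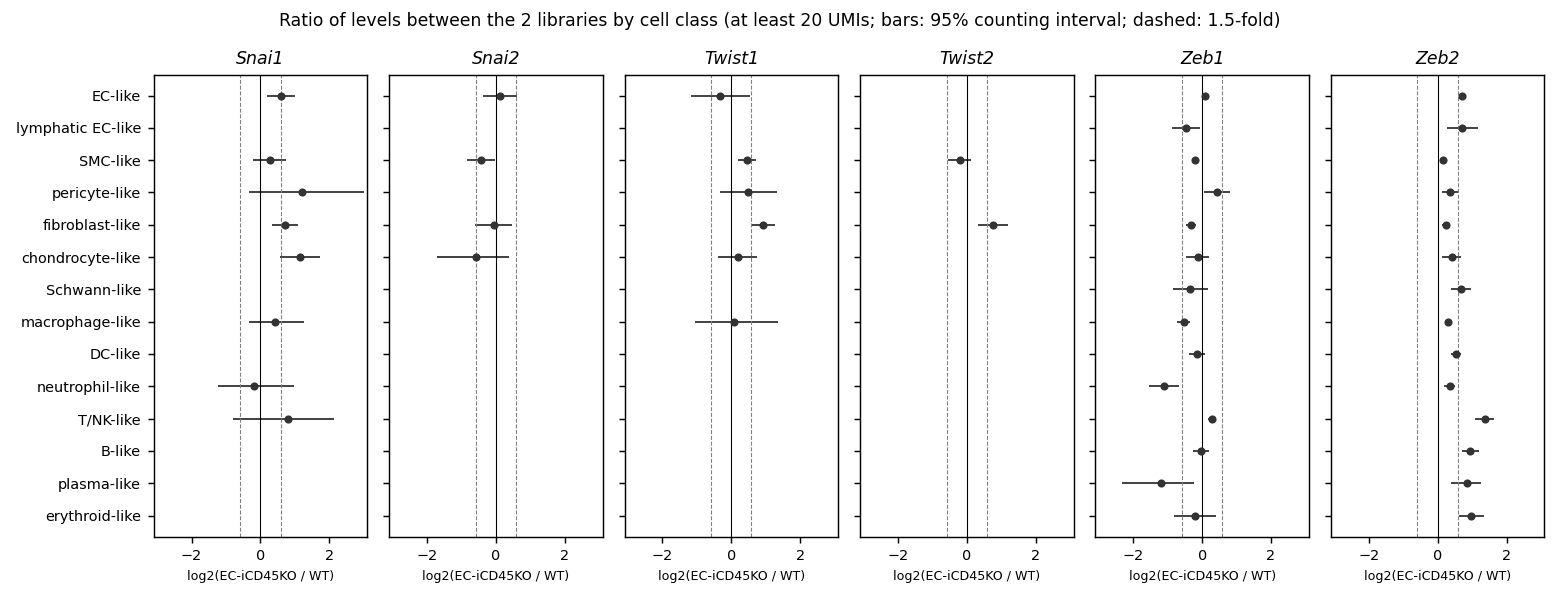
Log2 ratio of the EC-iCD45KO over the WT level for each gene in the cell classes where it had at least 20 UMIs and was seen in both libraries; bars are 95% counting intervals and dashed lines mark 1.5-fold. In EC-like cells Zeb2 (0.71) and Snai1 (0.595) lie past the dashed line, Zeb1 (0.07) lies near 0, and the Zeb2 points of 14 classes all lie above 0.

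Zeb2 had 1188 UMIs in the WT and 2523 in the EC-iCD45KO EC-like cells, 152 and 249 CPM, a log2 ratio of 0.71 (0.61 to 0.81). It was not past the call without the EC-like subcluster led by leukocyte genes, at 0.492 (0.38 to 0.61), or with the stricter cell filter. The class ratio was above 0 in each of the 14 classes, from 0.17 in SMC-like cells, whose 2 clusters went opposite ways, to 1.38 in T/NK-like cells, and over all cells Zeb2 was 264 CPM in WT and 554.5 CPM in EC-iCD45KO. Macrophage markers were higher in EC-iCD45KO in 6 of the 8 EC-like subclusters and Zeb2 in 7. In the capillary-like subcluster these markers were 2944 CPM in WT and 2112 CPM in EC-iCD45KO, and Zeb2 was 114 and 102.5 CPM, a ratio of -0.15 (-0.45 to 0.15). In the arterial-like subcluster the markers were 2104 and 3951 CPM and Zeb2 149 and 315 CPM, a ratio of 1.08 (0.83 to 1.33), and in the venous-like one they were 2749 and 4115 CPM with Zeb2 at 133 and 212 CPM, a ratio of 0.68 (0.45 to 0.90). The deep EC-like cluster led by Gpihbp1 and Adgrl4 had markers at 1022 and 918 CPM and Zeb2 at 58.9 and 62.2 CPM, a ratio of 0.08 (-0.21 to 0.37). In EC-like cells without a macrophage marker UMI the ratio was -0.10 (-0.62 to 0.41). Other cells went another way: in pericyte-like cells the markers were 2021 CPM in WT and 1307 CPM in EC-iCD45KO with a Zeb2 ratio of 0.36 (0.14 to 0.58). In the EC-like subcluster led by Igfbp5, Esm1 and Npr3, with 10 and 83 cells, they were 5176 and 2757 CPM with Zeb2 at 168 and 277 CPM, from 5 and 48 UMIs. The part of macrophage RNA in the Zeb2 ratio of EC-like cells was not tested.

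Snai1 stood 1.51-fold higher in the EC-like cells of EC-iCD45KO, with 80 and 157 UMIs and a log2 ratio of 0.595 (0.20 to 1.002), just past the fold. The subcluster led by Nts, Prnd and Pgf, with 17 WT and 129 EC-iCD45KO cells, gave 11 of the 80 WT and 49 of the 157 EC-iCD45KO Snai1 UMIs. Without it the ratio was 0.405 (-0.04 to 0.86) and no longer past the call. With the subclusters given the same weights in both libraries it was 0.165. It was likewise not past the call without doublet removal (0.444), with totals that leave out haemoglobin, mitochondrial and ribosomal protein genes (0.58), or in cells without a macrophage marker UMI, where 16 and 9 UMIs gave -0.35 (-1.71 to 0.91). Inside the subcluster itself the ratio was -0.54 (-1.50 to 0.55), and in none of the 8 subclusters did the interval exclude 0. The EC-like cluster led by Rbp7 and Igfbp3 gave 5.34 and 12.03 CPM, a ratio of 1.17 (0.36 to 2.05), and the one led by Gpihbp1 and Adgrl4 gave 17.4 and 18.8 CPM, a ratio of 0.11 (-0.42 to 0.66).

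Zeb1 in EC-like cells had 2064 and 2814 UMIs and a log2 ratio of 0.07 (-0.01 to 0.15). Snai2 gave 0.125 (-0.37 to 0.63) from 60 and 85 UMIs, and Twist1 gave -0.32 (-1.17 to 0.53) from 25 and 26 UMIs. The intervals of all 3 ratios held 0. Without the subcluster led by leukocyte genes the Zeb1 ratio was 0.152 (0.07 to 0.24). As a mean of single-cell CPM the Twist1 ratio was 1.12. The EC-like clusters did not share 1 direction of Zeb1: the cluster led by Gpihbp1 had 298 CPM in WT and 368 CPM in EC-iCD45KO, and the cluster led by Rbp7 had 216 and 175 CPM with macrophage markers at 5185 and 7718 CPM. The part of those markers in the lower Zeb1 value was not tested.

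In fibroblast-like cells Twist1, Twist2 and Snai1 were all higher in the EC-iCD45KO library. Fibroblast-like cells were called higher for 3 of 6 members, Twist1, Twist2 and Snai1, against 5.53% of 13208 genes called higher there and 11.6% called lower. Twist1 had 96 and 261 UMIs in these cells, a log2 ratio of 0.91 (0.56 to 1.26). Macrophage-like cells held 0.671 and 0.705 CPM of Twist1, and macrophage markers summed to 3147 and 4042 CPM in fibroblast-like cells. The class holds 2 clusters, and the deep one led by Sfrp4 and Ccl19 had 347 WT and 505 EC-iCD45KO cells. Twist1 was higher in both, at 37.04 and 58.7 CPM in the Sfrp4 cluster and at 13.45 and 23.99 CPM in the cluster led by C7, Clec3b and Dpep1, with ratios of 0.66 (0.25 to 1.10) and 0.84 (0.21 to 1.49). In the Sfrp4 cluster Twist2 stood at 19.99 and 36.9 CPM and Snai1 at 25.9 and 43.8 CPM, both at least 1.5-fold apart. In the C7 cluster the intervals of both ratios held 0, with 30 and 32 UMIs of Twist2 and 43 and 58 of Snai1. The fibroblast markers of the class summed to 20230 CPM in WT and 25340 CPM in EC-iCD45KO. Markers of chondrocytes, a class with high Twist1 and Snai1, summed to 414 and 769.8 CPM in these cells, and their part in the ratios was not tested.

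**Figure D5:**
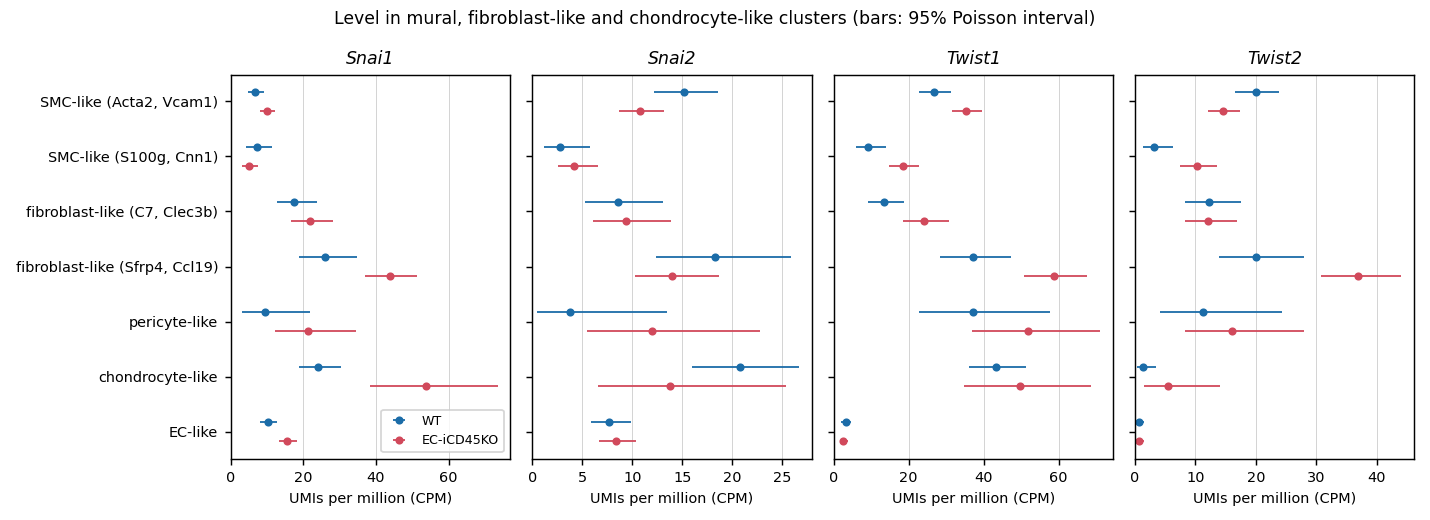
Level in CPM (linear axes) of Snai1, Snai2, Twist1 and Twist2 in SMC-like and fibroblast-like clusters, pericyte-like, chondrocyte-like and EC-like cells, WT in blue and EC-iCD45KO in red, with 95% Poisson intervals. Twist1 was higher in EC-iCD45KO in both fibroblast-like clusters (13.45 against 23.99 and 37.04 against 58.7 CPM), and Twist2 in the Sfrp4 cluster (19.99 against 36.9 CPM) and in the SMC-like cluster led by S100g and Cnn1 (3.21 against 10.2 CPM).

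SMC-like cells, with 0 of 6 members called and 6.43% of 14347 genes called higher and 9.57% lower, held a deep cluster (median 8098 UMIs) led by Acta2, Cnn1 and Vcam1 and a shallow one led by S100g, Cnn1 and Tagln. Snai2, Twist1 and Twist2 were higher in the deep cluster. Twist1 stood there at 26.8 CPM in WT and 35.4 CPM in EC-iCD45KO, Twist2 at 19.98 and 14.5 CPM and Snai2 at 15.15 and 10.7 CPM. The shallow cluster held 9.23 and 18.4 CPM of Twist1, 3.21 and 10.2 CPM of Twist2 and 2.81 and 4.22 CPM of Snai2. Zeb2 was 174 and 131 CPM in the deep cluster, where macrophage markers were 578 and 876 CPM, and 231 and 375 CPM in the shallow one, where they were 3889 and 6209 CPM. Between the libraries, the EC-iCD45KO value was higher in both clusters for Twist1 and lower in both for Zeb1, and the sign differed between the clusters for Snai1, Snai2, Twist2 and Zeb2. In the shallow cluster the intervals of the Snai1 and Snai2 ratios held 0, from 18 and 22 UMIs of Snai1 and 7 and 19 of Snai2. Those of Twist2 and Zeb2 did not. No direction over the whole SMC-like class can be read for those 4 genes. Pericyte-like cells, with 209 and 190 cells, had 0 of 4 members past the call with 8.21% of 7768 genes called higher and 7.43% lower, and their Zeb1 was 173 and 234 CPM, a ratio of 0.435 (0.065 to 0.81). The pericyte markers of that class summed to 2778 and 5808 CPM, B markers to 2243 and 1344 CPM and macrophage markers to 2021 and 1307 CPM, and the part of this in the Zeb1 ratio was not tested. In chondrocyte-like cells (756 and 168 cells) 1 of 5 members was called, Snai1 higher, from 72 and 39 UMIs with a ratio of 1.16 (0.56 to 1.74). There 7.06% of 10445 genes were called higher and 7.1% lower. The chondrocyte markers of this class summed to 12640 CPM in WT and 4582 CPM in EC-iCD45KO and the macrophage markers to 1333 and 3534 CPM, so its cells were not alike in the 2 libraries, and the part of this in the Snai1 ratio was not tested.

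Macrophage-like cells had 0 of 4 members called, with 4.11% of 14773 genes called higher and 6.37% lower. Zeb2 was 686 CPM in WT and 844 CPM in EC-iCD45KO, a ratio of 0.30 (0.26 to 0.33). The largest cluster of the class was in WT the one led by Gpnmb, Mmp12 and Trem2, genes of lipid-laden macrophages, with 1328 cells, and in EC-iCD45KO a shallow one led by Lyz1 and Apoc2, with 3727. Zeb2 was lowest in the Gpnmb cluster, at 432.5 and 593 CPM, and highest in the cluster led by Chil3 and F10, at 997 and 1155 CPM. The cluster led by Ccl8, Ccl12 and Mrc1, with genes of resident macrophages, held 839 and 928 CPM, and the Lyz1 cluster 850 and 920 CPM. The order of the Gpnmb cluster below, and the Chil3 cluster above, both others held in both libraries without overlap of the intervals. Zeb1 in the class was 26.8 and 18.5 CPM, and its clusters did not move alike. It was called lower in the Gpnmb cluster, at 21.5 and 12.03 CPM with a ratio of -0.84 (-1.17 to -0.50), and in the Chil3 cluster, at 39.4 and 13.2 CPM with a ratio of -1.57 (-1.99 to -1.16). In the Ccl8 cluster it was 21.6 and 24.1 CPM and in the Lyz1 cluster 37.8 and 30.55 CPM, with intervals of the ratio that held 0. B markers in the Gpnmb cluster were 192 and 24.3 CPM and in the Chil3 cluster 724 and 35.3 CPM, and T/NK markers 185 and 132 CPM and 296 and 149 CPM. Their part in the lower Zeb1 was not tested.

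Among lymphocytes Zeb1 stayed between 362 and 446 CPM in WT over the 4 T/NK-like clusters, and the cluster led by Tnfrsf4 and Ctla4, genes of regulatory T cells, was the one at least 1.5-fold apart, with 414 CPM in WT and 754 CPM in EC-iCD45KO from 816 and 189 UMIs. In the T/NK-like class 1 of 3 members was called, Zeb2 higher, with 9.72% of 11891 genes called higher and 3.41% lower. The cells of this class were spread differently over its clusters: the one led by Dapl1 and Lef1, with the lowest Zeb2 (14.2 and 21.7 CPM), held 1694 of 3891 WT and 87 of 445 EC-iCD45KO cells, and the one led by Trdc and Cd163l1 held 555 and 154. Within the Dapl1 cluster the Zeb2 ratio was 0.61 (-1.07 to 1.93) and within the one led by Ccl5 and Nkg7 0.09 (-0.68 to 0.79), both holding 0. In the Tnfrsf4 and Trdc clusters it was 1.295 and 1.175, past the call. In B-like cells it was likewise Zeb2 of 3 members, at 83.3 and 161 CPM, with 4.68% of 11759 genes called higher and 2.11% lower. Macrophage markers in T/NK-like cells were 764 CPM in WT and 1757 CPM in EC-iCD45KO, and their part in the Zeb2 ratio was not tested. Zeb1 was called lower in neutrophil-like cells, at 124 and 57.4 CPM with 6.98% of 8392 genes called higher and 10.3% lower, and in plasma-like cells, at 87.0 and 38.2 CPM from 360 and 9 UMIs with 7.01% of 9438 genes called lower. B markers in neutrophil-like cells were 1854 CPM in WT and 118.5 CPM in EC-iCD45KO, and T/NK markers 522 and 137 CPM. In plasma-like cells B markers were 1551 and 581 CPM and T/NK markers 454 and 42.4 CPM. The part of this lymphocyte RNA in the lower Zeb1 was not tested. Zeb2 was also called higher in Schwann-like, lymphatic EC-like, plasma-like and erythroid-like cells, with 8.94%, 7.27%, 5.27% and 12.9% of genes called higher and 7.26%, 7.36%, 7.01% and 9.27% lower. In DC-like cells 0 of 2 members were called, with 5.05% of 10249 genes called higher and 7.18% lower. Macrophage markers were higher in EC-iCD45KO in these 4 classes too, at 1506 and 8684 CPM in Schwann-like, 1815 and 4766 CPM in lymphatic EC-like, 2550 and 3623 CPM in plasma-like and 5250 and 11960 CPM in erythroid-like cells, and in B-like cells, at 380 and 489.6 CPM. Their part in these Zeb2 ratios was not tested.

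The partners and regulators of these factors were read from lists. Of the other transition factors, 7 of 12 had 20 UMIs in EC-like cells, and 0 passed the call in either direction, with a median log2 ratio of -0.10. In the same cells the helix-loop-helix list, which holds the E proteins that pair with Twist and the Id proteins that block them, had 0 of 7 past the call and a median of 0.02. Corepressors such as Ctbp1 and Kdm1a had 0 of 11, the proteins that control Snail stability and location 0 of 11, and Smad transducers, which carry TGF-beta and BMP signals, 0 of 9, with medians of -0.06, -0.06 and 0.23. Over the lists 0 of 45 entries passed, with Tcf3 and Tcf4 each in 2 lists, beside 5.56% of all genes called higher and 8.52% lower in these cells. None of the 9 opposing epithelial regulators, Cdh1 among them, reached 20 UMIs in EC-like cells. In fibroblast-like cells 2 of 9 tested transition factors, 1 of 9 Smad transducers, 1 of 11 proteins of Snail stability, 0 of 8 helix-loop-helix genes and 0 of 10 corepressors passed it, against 5.53% of all genes called higher and 11.6% lower. There Foxc2, a forkhead factor, stood at 16.1 and 25.9 CPM, Klf8 at 5.54 and 2.82 CPM, Smad3, a TGF-beta transducer, at 37.6 and 65.7 CPM, and Fbxo11, a subunit of a ubiquitin ligase that targets Snail, at 277 and 165 CPM. In SMC-like cells 2 of 8 helix-loop-helix genes, 1 of 11 proteins of Snail stability, 1 of 2 epithelial regulators, 0 of 9 transition factors, 0 of 11 corepressors and 0 of 9 Smad transducers passed it, against 6.43% called higher and 9.57% lower. Lower in EC-iCD45KO were Fbxo11 (173.5 and 109.0 CPM), Id4 (19.9 and 13.2 CPM) and Hand2 (3.65 and 1.37 CPM), and Cdh1 was higher (2 and 21 UMIs, 0.235 and 1.595 CPM). The kidney tubule markers Aqp2, Calb1 and Hsd11b2 were among the leading genes of an unnamed cluster nearest to SMC, with 222 WT and 782 EC-iCD45KO cells. Umod, Slc12a3 and Kap were among those of another, with 2046 WT and 0 EC-iCD45KO cells. The part of kidney tubule RNA in the Cdh1 value was not tested. In macrophage-like cells 0 of 47 entries of the 6 lists passed it, beside 4.11% of all genes called higher and 6.37% lower.

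The members seen in each cell were then counted. After thinning, 66.0% of WT and 59.7% of EC-iCD45KO EC-like cells had no UMI of any member, 30.9% and 36.4% had 1 member and 3.09% and 3.88% had 2 or more. Of fibroblast-like cells 6.865% and 7.75% had 2 or more, of SMC-like cells 4.67% and 5.81%, and of pericyte-like cells 6.76% (148 cells) and 15.1% (126 cells). In EC-like cells with a Zeb1 UMI, Zeb2 was seen in 11.8% (9.22 to 14.8) for WT and 16.05% (12.99 to 19.5) for EC-iCD45KO, against 13.5% (up to 15.1) and 24.8% (23.01 to 26.7) of those without one. The intervals were apart in EC-iCD45KO, where a macrophage marker UMI was seen in 60.9% of cells with Zeb1 and 76.65% of those without, and in WT in 67.65% and 65.4%, in the separate thinning described next. Among macrophage-like cells with a Zeb1 UMI, Zeb2 was seen in 51.85% for WT and 52.1% for EC-iCD45KO, against 44.8% and 52.1% without one, and the intervals overlapped.

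A list of 10 contractile and collagen genes (Acta2, Tagln, Myh11, Cnn1, Myl9, Col1a1, Col1a2, Col3a1, Col5a1 and Col6a3), chosen after the data were seen, was then counted in the EC-like cells in a separate thinning to 1000 UMIs. At least 3 of the 10 were seen in 100 of 2494 WT cells (4.01%, 3.27 to 4.86) and 155 of 2706 EC-iCD45KO cells (5.73%, 4.88 to 6.67). Of cells with a Zeb1 UMI 4.325% (WT) and 6.98% (EC-iCD45KO) reached this, against 3.91% and 5.42% of cells without one. Of cells with a Zeb2 UMI 4.01% and 5.975% did, against 4.01% and 5.65% of the others. The exact intervals of each of these pairs overlapped, so no link between either Zeb gene and these transcripts was detectable at this depth. The other members were seen in too few cells to read a link from. Of EC-iCD45KO cells with a Twist1 UMI, 4 of 6 reached 3 of the 10 genes (66.7%, 22.3 to 95.7), against 151 of 2700 without one (5.59%, 4.76 to 6.53), and in WT 0 of 4 did. The 10 genes are transcripts of SMC and fibroblasts, where Twist1 was also high, and in EC-like cells SMC markers summed to 648 CPM in WT and 810 CPM in EC-iCD45KO and fibroblast markers to 712 CPM in WT and 654 CPM in EC-iCD45KO. Their part in these 4 cells was not tested. With a Snai1 UMI 1 of 24 WT and 2 of 26 EC-iCD45KO cells did, with a Snai2 UMI 0 of 20 and 0 of 18, and with a Twist2 UMI 0 of 3 and 1 of 2. Macrophage marker UMIs were present in 86.5% of the WT and 95.6% of the EC-iCD45KO EC-like cells with a Zeb2 UMI, against 62.6% and 66.8% of those without.

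Likeness of profile was measured as Pearson's r of log2(CPM + 1) over 28 points, the 14 classes in 2 libraries, among 13819 genes with at least 200 UMIs. These points share libraries, free RNA and depth, and r is a description. Among the members the closest pairs were Twist1 with Twist2 (0.87), Snai2 with Twist1 (0.865) and Snai2 with Twist2 (0.77), and Zeb1 with Zeb2 stood at -0.51. The genes most like Snai2 were Col5a2 (0.94), Sparc, Htra1, Pcsk5 and Gpx7, and those most like Twist1 were Plekhh2 (0.965), Gli2, Vasn, Ildr2 and Pdgfrb. Twist2 was most like C1s1 (0.93), Hoxc10, Ube2u, Cd248 and Arhgef25. Zeb2 was most like Bach1 (0.89), Creb5, Plekhm2, Cdk14 and Mbnl2, and Zeb1 like Senp6 (0.86), Nck2, Prrc2b, Arl2bp and Mllt3. Snai1 had no close companion: its nearest were Fgd1 (0.78), Zfp229, 4933408B17Rik, Efna2 and Creb3l1.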

How the data were processed

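The deposited matrices hold whole-number UMI counts per gene and cell barcode, written by Cell Ranger 7.1.0 per the file headers, with the build mm10 per the submitters' processing notes. Which annotation was used, and how cells were called and intronic or antisense reads handled, is not given in the sources used here. Barcodes with 300 or more genes and a mitochondrial share of up to 10% were kept (39503 of 39849 in WT, 28960 of 30278 in EC-iCD45KO). Scrublet's own threshold marked 8 of 39716 WT cells (0.0201%) and 0 of 29991 in EC-iCD45KO, so it had not worked, and the 10% of highest scores were removed per library instead. Cells of both libraries were clustered together (scanpy 1.11.5, leidenalg 0.10.2, 2000 variable genes, 30 components, 20 neighbours, resolution 1) without the members, the listed partner genes and Ptprc. Clusters were named X-like from 22 marker lists, with naming thresholds set after the data were seen, and a difference from the study may come from these rebuilt names. UMIs were summed per class and library and divided by the class total. No test between the groups was possible with 1 library each. Levels have exact Poisson, shares exact Clopper-Pearson and log2 ratios exact conditional binomial 95% intervals, which cover counting error only. The limit for 0 UMIs is 3 counts of the total. The intervals of the log2 ratio were tested on simulated Poisson counts, the counting error that they assume. That simulation checks the calculation and holds no variation between cells, libraries or free RNA.

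The members and lists were chosen with earlier results of these data known. The named genes were the 6 members, listed partner genes past the 1.5-fold call (at most 4 per list outside EC-like cells) and the 5 genes most like each member. Positions come from GENCODE M21 (32158 of 32285 identifiers matched), and upstream sequences from RefSeq on GRCm38.p6, taken for 4 of 6 members. Entries on chromosome 18, where Zeb1 lies, were left out for the members. Alternatives were other cell filters, no doublet removal, centred libraries, Leiden resolution 2, TMM scaling (edgeR 4.0.16), other totals, single-cell means, cells free of macrophage markers, thinning to 2000 UMIs or none, and other UMI minimums. Added after the data were seen were EC-like cells without 1 subcluster and equal subcluster weights.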

Additional observations from a re-analysis of the deposited data

Results flagged for a closer look

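Several ratios of EC-iCD45KO over WT had counting intervals on opposite sides of 0 in 2 cell groups. With 1 library per group the differences between these cell groups were not tested. Twist2 in SMC-like cells gave a log2 ratio of 1.67 (0.57 to 2.96) in the shallow cluster led by S100g and Cnn1, from 8 and 46 UMIs, and -0.46 (-0.83 to -0.09) in the deep cluster led by Acta2 and Vcam1, from 120 and 126 UMIs. Zeb2 gave 0.70 (0.56 to 0.84) in the first of these clusters and -0.41 (-0.53 to -0.29) in the second, with macrophage markers higher in EC-iCD45KO in both. Zeb1 ranged over the named classes from 0.435 (0.065 to 0.81) in pericyte-like to -1.19 (-2.33 to -0.25) in plasma-like cells. Within EC-like cells Zeb1 gave 0.30 (0.18 to 0.43) in the cluster led by Gpihbp1 and Adgrl4 and -0.31 (-0.46 to -0.16) in the cluster led by Rbp7 and Igfbp3.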

How the results depend on the processing

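No paired analysis was possible because single libraries stand for the groups. In EC-like cells the Zeb2 log2 ratio of 0.71 was 0.524 with the stricter cell filter, 1.06 as a mean of single-cell CPM, 0.492 without the subcluster led by leukocyte genes and -0.10 in cells without a macrophage marker UMI. The values of 0.524, 0.492 and -0.10 were not past the call. Under the 8 other alternatives the Zeb2 ratio lay between 0.61 and 0.79. The Snai1 ratio of 0.595 was -0.35 (16 and 9 UMIs) in cells without a macrophage marker UMI and 0.165 with equal subcluster weights, and lay between 0.405 and 0.76 under the 10 others, of which no doublet removal (0.444), totals that leave out haemoglobin, mitochondrial and ribosomal protein genes (0.58) and leaving out the subcluster led by Nts, Prnd and Pgf (0.405) were not past the call. The Twist1 ratio of -0.32 was 1.12 as a mean of single-cell CPM. The Zeb1 ratio of 0.07 was -0.20 as a mean of single-cell CPM, -0.016 without the subcluster led by Nts, Prnd and Pgf and -0.018 with equal weights. Without the subcluster led by leukocyte genes it was 0.152 (0.07 to 0.24), an interval above 0 and short of the fold. The Snai2 and Twist2 ratios moved less than their counting error under the 12 alternatives run. The cause of these shifts was not tested. With at least 100 UMIs, 510 genes were called higher and 754 lower in EC-like cells, in place of 783 and 1199, since fewer genes were tested. Counting error limits Snai1, Snai2, Twist1 and Twist2 in the smaller classes, where a class often held under 20 UMIs of a member. Of the levels, 22 of 168 moved beyond their counting error without doublet removal, and 57 of 96 in cells without a macrophage marker UMI. Shares with a UMI moved in 82 of 156 without thinning and in 85 of 156 at 2000 UMIs.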

Other observations

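Cells outside the named classes also carried the members. An unnamed cluster led by Mmp13, Slurp1 and Prg4, with 2369 WT and 580 EC-iCD45KO cells, held Twist1 at 14.9 and 28.6 CPM, Zeb2 at 248 and 451 CPM and Zeb1 at 199 and 123 CPM. Its Snai2 was 7.74 CPM (26 UMIs) in WT and had no UMI in EC-iCD45KO. Its macrophage markers were 3631 and 5203 CPM, fibroblast markers 8158 and 12250 CPM and B markers 2347 and 317 CPM. A cluster of dividing cells, led by Hist1h1b, Ube2c and Mki67, held Zeb2 at 269 and 472 CPM, Zeb1 at 106.5 and 72.1 CPM and Snai2 at 2.51 and 7.21 CPM from 7 and 12 UMIs. It lay about as near to the macrophage as to the T/NK markers. Macrophage markers there were 9096 CPM in WT and 13790 CPM in EC-iCD45KO, fibroblast markers 644 and 2528 CPM, B markers 1696 and 195 CPM and T/NK markers 1114 and 580 CPM. The part of these markers in the values of both clusters was not tested.

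The cells that supplied each transcript differed. Of all Zeb2 UMIs, 40.9% in WT and 68.0% in EC-iCD45KO lay in macrophage-like cells, which made up 9.85% and 37.1% of the cells. EC-like cells, with 9.86% and 16.1% of the cells, held 13.1% and 29.1% of the Zeb1 UMIs and 5.28% and 5.51% of the Zeb2 UMIs. SMC-like cells held 49.2% and 44.4% of the Twist2 UMIs and 32.0% and 45.7% of the Twist1 UMIs.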
